A study of Mus musculus with 3 samples.

Results

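The genes described here are the mitochondrial solute carriers of family SLC25, taken as every gene of the tables whose symbol is Slc25a followed by a number. There were 47 such genes among the 23361 genes of the tables, and 36 of them had an FPKM (fragments counted per kilobase of transcript and scaled to the mapped fragments of the library) of at least 1 in at least 1 of the 3 liver libraries. These 36 are described by the substrate they carry, and the other 11 stayed under that level in all libraries. The members nearest to the limit were Slc25a29, with a highest FPKM of 1.09, and Slc25a24, with a highest FPKM of 0.996.

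The libraries came from livers of C57BL/6J mice aged 8 to 10 weeks and labelled male, which were fasted before surgery. The sham library is from mice with a laparotomy and no clamping, sampled 90 min later, the warm ischemia (WI) library from mice with 90 min of clamping of the vessels to the left and median lobes, and the IR library from mice with 90 min of clamping and 120 min of reperfusion. There is 1 library per group, and whether it pools several mice is not stated. The sham livers were sampled 120 min earlier after surgery than the IR livers. No difference below has a replicate check, and no p-value is given. The only error in the tables is a lower and an upper 95% bound on each FPKM. These bounds come from the error model of Cuffdiff and, with 1 library per group, are no measure of the spread between mice.

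Carriers of this family sit mostly in the inner mitochondrial membrane, which is closed to ions and metabolites, and exchange 1 solute of the matrix for 1 of the cytosol or move a solute together with a proton. They supply ADP and phosphate to the ATP synthase, bring fatty acids in as acylcarnitines, and let citrate out for lipid synthesis. In liver they also link the parts of the urea cycle and of gluconeogenesis that lie on either side of the membrane. Ischemia stops respiration and reperfusion restores it, so these carriers stand between the damaged organelle and the rest of the hepatocyte.

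Some properties of the libraries bear on all values. Against the male label, Xist, the RNA of the inactive X chromosome, had an FPKM of 18.9 in the sham library and 20.1 in the WI library, where the Y-linked genes Ddx3y, Eif2s3y, Kdm5d and Uty were at 0 or, for Ddx3y in WI, at 0.00849. In the IR library Xist was at 1.29, Ddx3y at 8.58 and Eif2s3y at 13.2. A difference in sex between the libraries therefore cannot be told apart from reperfusion in either comparison with IR, while the WI and sham libraries carry the same sex markers. The 7 hepatocyte markers had a summed FPKM of 18890 in sham, 13912 in WI and 19087 in IR. Of the 6 that passed the limit, 2 were at least 1.5-fold lower in WI than in sham, beside 4.27% of all genes. In IR 3 were lower than in sham, beside 9.49%. Alb was listed at 0 in all 3 libraries with the status that Cuffdiff gives to loci with too many fragments. The summed FPKM of 9 neutrophil markers was 25.9 in sham, 19.6 in WI and 462 in IR, with Mpo and Elane between 0 and 0.118. That of 8 erythroid markers was 751, 518 and 1976 in the same order, with Epb4.2 at 0, and that of 7 Kupffer cell markers, none of them at 0, was 484, 246 and 161. The 6 endothelial markers summed to 124, 88.2 and 109, and their orders differed. Lyve1 (11.2, 2.73 and 33.4), Cdh5 (12.5, 8.15 and 16.9) and Pecam1 (10.2, 6.52 and 7.74) were lowest in WI. Stab2 (8.05, 5.47 and 5.17), Kdr (10.9, 9.45 and 4.80) and Clec4g (70.7, 55.9 and 41.4) were lowest in IR. The 4 cholangiocyte markers summed to 2.48, 3.29 and 6.92. None of 6 markers of striated muscle and adipose tissue reached an FPKM of 1. In bulk tissue, fewer cells of a type and less RNA per cell cannot be told apart, and the part of these cell types in the changes below was not tested. The files hold no counts. Among genes with an FPKM under 0.1 the most common ratio was 1.25 between the IR and the sham library and 0.900 between the WI and the sham library, which gives the relative worth of a single fragment.

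All 47 genes together held 0.454% of the summed FPKM of all genes in the sham library, 0.411% in WI and 0.349% in IR. Their own sum was 2159, 2006 and 2484, highest in IR, where the sum of all genes was also highest (475754, 487912 and 712423). Loci with the status of too many fragments, such as Alb, numbered 1, 1 and 7. Most of the family's sum came from few carriers, since the 5 highest held 65.6%, 63.9% and 68.8% of it. The 36 members had a median FPKM of 15.8 in sham, 14.1 in WI and 17.9 in IR, above the medians of 6.06, 6.06 and 6.33 over the 10792 genes that passed the same limit. All 47 members had the status OK in every library, and the bounds of the 36 corresponded to a median coefficient of variation of 25.7%, 26.1% and 26.1%.

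**Figure D1:**
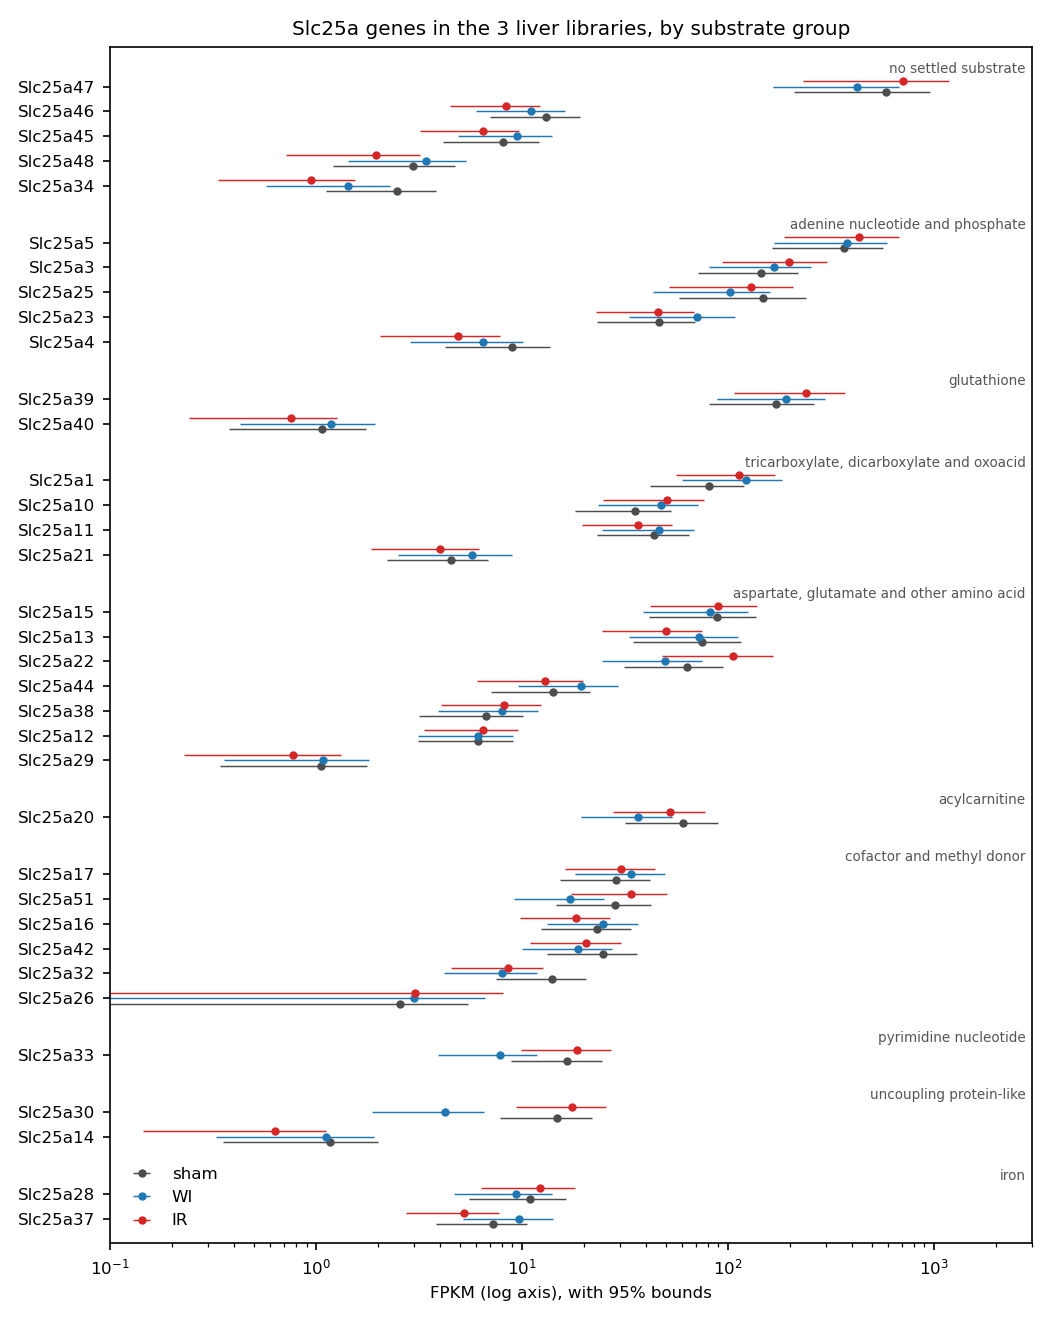
FPKM of 35 of the 36 Slc25a genes that passed the limit, on a log axis, grouped by substrate. Points are the sham (grey), WI (blue) and IR (red) libraries, 1 per group, and lines are the 95% bounds (those of Slc25a26 reach 0 and leave the axis). Slc25a47 and Slc25a5 are the highest in each library, and the blue point of Slc25a30 lies at 4.22, left of the lower bounds of the other libraries.

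Changes are given as the log2 ratio of FPKM + 1, so a gene with low FPKM has its change understated. The larger limit used was a 2-fold difference in FPKM + 1 and the smaller a 1.5-fold difference. From sham to WI, 1 of the 36 members differed 2-fold, beside 1.85% of all genes, and the bounds of 1 member did not overlap, beside 0.676% of all genes. From WI to IR these counts were 3 members, beside 7.21% of all genes, and 1 member, beside 3.61%. Between IR and sham no member differed 2-fold and no member had bounds apart, beside 7.50% and 3.82% of all genes. The 2-fold count for WI and IR is 8.33% of the members, near the share of all genes.

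At 1.5-fold, 2 members were higher in WI than in sham, beside 3.14% of all genes, and 5 were lower, beside 4.27%. From WI to IR, 5 members were higher, beside 12.4% of all genes, and 2 were lower, beside 7.40%. Between IR and sham, 1 member was higher, beside 14.3% of all genes, and 4 were lower, beside 9.49%. In percent of the 36 members, the 5 lower members of WI are 13.9%, and the single higher member of IR against sham is 2.78%. The median change of the family was 0.04 for WI against sham, 0.02 for IR against WI and -0.07 for IR against sham, beside 0.02, 0.03 and 0.05 over all genes. For members with an FPKM of at least 1 in all libraries the median of IR against sham was 0.04, so its sign depends on the filter. In 23 of the 36 members (63.9%) all 3 comparisons stayed under 1.5-fold as deposited. The share of all genes that did so was not counted. The summed FPKM of all genes was 475754 in sham, 487912 in WI and 712423 in IR, so putting the libraries on a common sum lowers the median of all genes by 0.44 for IR against WI and by 0.47 for IR against sham. On that scale 14 and 16 members changed sign in these comparisons, and none of them was past 1.5-fold as deposited. On that scale and relative to the median of all genes, the members past 1.5-fold numbered 0 higher and 5 lower in WI against sham, 5 higher and 4 lower in IR against WI, and 0 higher and 5 lower in IR against sham. The shares of all genes were counted only as deposited, so these member counts have no share beside them. Scaling by the median ratio changed no sign. It moved the median of all genes by -0.003 for WI against sham, -0.004 for IR against WI and -0.007 for IR against sham. Every change involving IR that is given below on a common sum includes the lowering of all IR values on that scale.

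**Figure D2:**
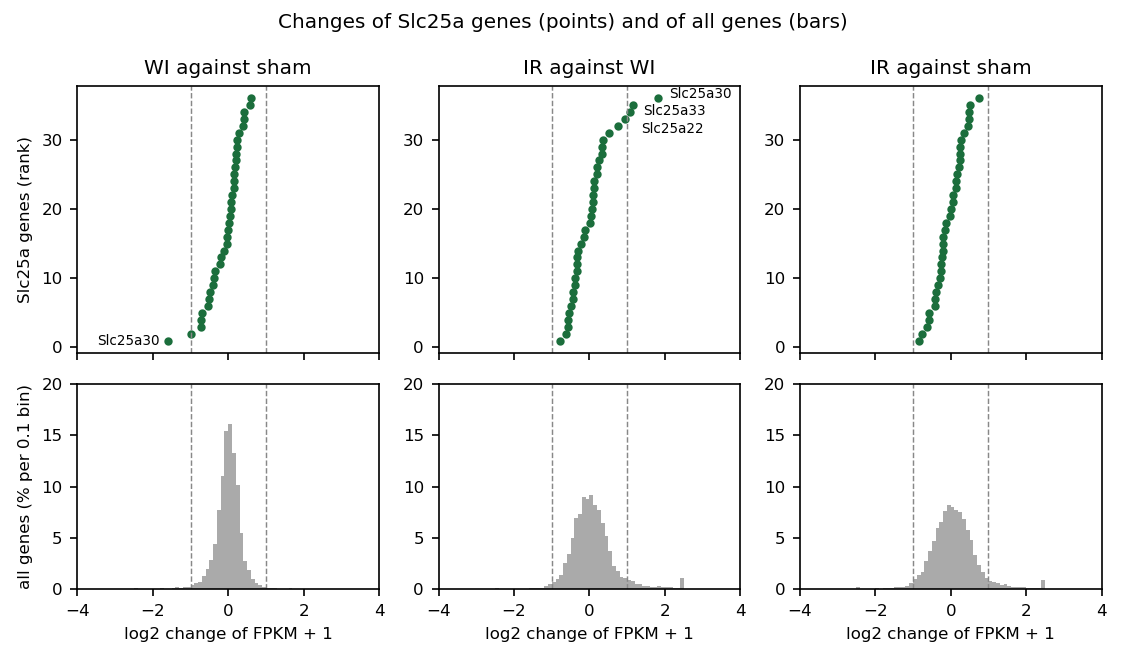
Log2 change of FPKM + 1 for the 36 Slc25a genes in order of their change (points, upper panels) and for all 10792 genes that passed the limit (bars, percent of genes per bin of 0.1, the most extreme values gathered in the outermost bins). Dashed lines mark 2-fold. Slc25a30 is past the line in both comparisons with WI, Slc25a33 and Slc25a22 only in IR against WI, and no member in IR against sham.

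Slc25a30, a carrier related to the uncoupling proteins and first described in kidney, had the widest excursion of the family. It lies on chromosome 14 of mm10 from 75761998 to 75787037. Its FPKM was 14.9 in the sham library (95% bounds 7.86 to 21.9), 4.22 in WI (1.88 to 6.56) and 17.5 in IR (9.33 to 25.6). WI stood below the other libraries, and as deposited its bounds overlapped with neither of theirs. On a common sum the bounds of WI and IR overlapped. The change was -1.60 from sham to WI and 1.82 from WI to IR, and the IR level was 1.18 times that of sham, an order that turns round on a common sum. Its relative Slc25a14 was near the limit, at an FPKM of 1.18, 1.12 and 0.633. Slc25a27, the other uncoupling protein-like member, was at 0.234, 0.238 and 0.122.

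Slc25a33, which carries pyrimidine nucleotides into the matrix, where they serve the synthesis of mitochondrial DNA and RNA, lies on chromosome 4 from 149744035 to 149774267. Its FPKM was 16.6 in sham (8.87 to 24.4), 7.86 in WI (3.93 to 11.8) and 18.6 in IR (9.94 to 27.2). WI was again lowest, though its upper bound reached above the lower bounds of the other libraries. The change was -0.99 from sham to WI, just short of 2-fold, and -1.08 without a pseudocount. It was 1.14 from WI to IR, and 0.64 on a common sum, which is under 2-fold. Slc25a36, the other pyrimidine nucleotide carrier, was lower than Slc25a33 by 17.1, 11.1 and 29.4 times in sham, WI and IR and did not reach an FPKM of 1.

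Slc25a51, the carrier that brings NAD+ into mitochondria, had an FPKM of 28.4 in sham (14.7 to 42.2), 17.1 in WI (9.12 to 25.1) and 33.8 in IR (17.2 to 50.4). Its change was -0.70 and then 0.94, with overlapping bounds, and the latter was 0.42 on a common sum, under 1.5-fold. With Slc25a30 and Slc25a33 it made 3 members (8.33%) that were at least 1.5-fold lower in WI than in both other libraries, beside 1.70% of all genes. On a common sum 2 members, Slc25a30 and Slc25a33, had this pattern. The reverse, WI at least 1.5-fold above both, was met by 1 member, Slc25a23, beside 1.01% of all genes, and by none on a common sum. The shares of all genes with these patterns were not counted on a common sum. A high or low value in the WI library alone gives such patterns, because WI enters both comparisons, and these patterns were counted after the values had been seen. By order alone, as deposited, WI was the lowest library for 12 members and the highest for 12 others, each 33.3%, beside 26.7% and 27.0% of all genes.

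The start regions of the carriers with this pattern are printed so that their sequences can be set beside the values. They are from RefSeq on GRCm38.p6, the assembly that mm10 is a copy of, and each runs from 250 bases before to 50 bases after the start of the gene, 5′ to 3′ on the strand of the gene (minus for both). Capitals mark matches on either strand to CACGTG, the E-box, and to TGACG, the core of CREB sites. These overlap in Slc25a33. Slc25a51 had no entry.
Slc25a30, chr14:75786988-75787287: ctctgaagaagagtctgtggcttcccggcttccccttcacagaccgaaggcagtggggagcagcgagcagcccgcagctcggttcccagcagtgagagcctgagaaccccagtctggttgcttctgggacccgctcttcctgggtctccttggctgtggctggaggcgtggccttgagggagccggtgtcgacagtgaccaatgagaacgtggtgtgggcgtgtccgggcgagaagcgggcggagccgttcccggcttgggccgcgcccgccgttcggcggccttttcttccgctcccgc
Slc25a33, chr4:149774218-149774517: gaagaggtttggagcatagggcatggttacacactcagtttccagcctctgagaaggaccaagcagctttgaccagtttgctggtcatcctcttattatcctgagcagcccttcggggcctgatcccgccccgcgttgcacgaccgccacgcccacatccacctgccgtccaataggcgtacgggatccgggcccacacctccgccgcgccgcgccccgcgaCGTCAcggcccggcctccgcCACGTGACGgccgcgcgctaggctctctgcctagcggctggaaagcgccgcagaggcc
The Slc25a33 window held 1 E-box and 2 TGACG cores, and the Slc25a30 window held neither. Over all 32851 RefSeq start windows, 7.15% held the E-box and 20.8% the TGACG core. Of the 38 windows that belong to 29 of the 36 members, 6 held the E-box and 11 the TGACG core. Neither window held AGGTCA, the core of nuclear receptor sites, or TATAAA, the TATA box, which 16.3% and 13.6% of all windows held. The base composition of both was high in G and C, at 66.7% and 66.0%, beside a median of 58.5% over the members' windows and 52.7% over all. A match in these letters is a description and not a binding site.

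**Figure D3:**
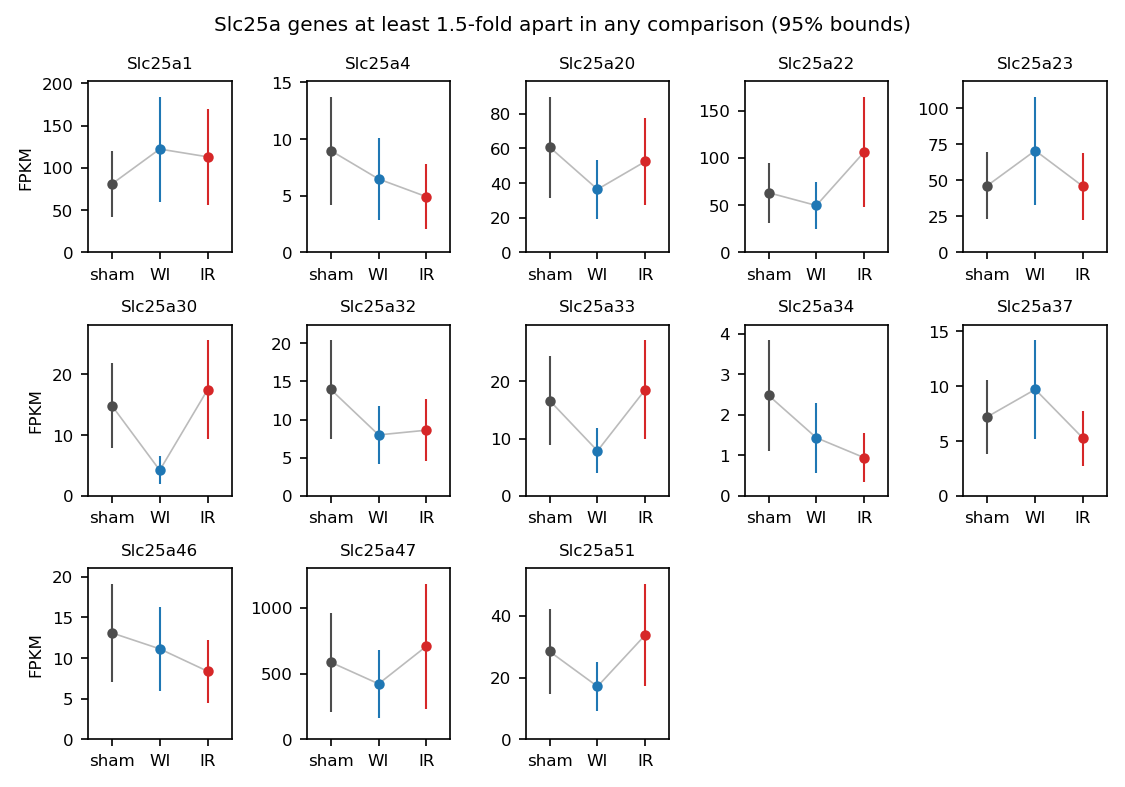
FPKM in the sham, WI and IR libraries (1 per group) of the 13 Slc25a genes that differed at least 1.5-fold in FPKM + 1 in any comparison, each on its own axis from 0, with 95% bounds as lines. Slc25a30, Slc25a33 and Slc25a51 are lowest in WI, Slc25a23 is highest there, and Slc25a34 and Slc25a4 are lowest in IR.

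Among the carriers of adenine nucleotides and phosphate, 5 of 8 passed the limit, and all 8 together held 33.2% of the family's summed FPKM in sham, 36.2% in WI and 32.7% in IR. Slc25a5, the ADP/ATP translocase of most tissues, is X-linked, and its FPKM was 366 in sham (163 to 568), 379 in WI (168 to 590) and 434 in IR (188 to 680). Slc25a3, which brings in phosphate for ATP synthesis, was at 146 in sham (71.9 to 220), 167 in WI (81.1 to 253) and 199 in IR (94.0 to 304). Both lay within 1.5-fold in all comparisons, and on a common sum their IR values fall below those of WI and sham. RefSeq lists a pseudogene, Slc25a5-ps, and how reads were divided between it and Slc25a5 is not stated, so the level of Slc25a5 is uncertain.

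Slc25a4, the ADP/ATP translocase typical of heart and muscle, was at 8.98 in sham (4.22 to 13.7), 6.47 in WI (2.86 to 10.1) and 4.91 in IR (2.04 to 7.79). The change from sham to IR was -0.76, with overlapping bounds, and -1.25 on a common sum, past 2-fold. Per length, Slc25a5 exceeded it by 40.7 times in sham, 58.5 times in WI and 88.3 times in IR. Of the 4 striated muscle markers, Acta1 and Myh4 were at 0, Ckm was at 0.0528 or less, and Mylpf was at 0.533, 0.710 and 0.571.

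The calcium-regulated ATP-Mg/phosphate carriers differed in opposite directions between sham and WI. Slc25a25 was at 149 in sham (58.0 to 239), 102 in WI (43.1 to 161) and 129 in IR (51.7 to 206), under 1.5-fold in every comparison. Slc25a23 was at 46.4 (23.1 to 69.7), 70.6 (33.2 to 108) and 45.7 (22.8 to 68.7), which is a change of 0.60 into WI and -0.62 out of it. On a common sum the former was 0.56, under 1.5-fold, and the latter -1.15, past 2-fold. The FPKM of Slc25a25 was thus 3.21 times that of Slc25a23 in sham, 1.44 times in WI and 2.82 times in IR. Slc25a24 was under the limit and Slc25a41 was listed at 0 throughout.

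Of the carriers of citrate and other carboxylates, all 4 passed the limit. Slc25a1, which exports citrate for fatty acid and sterol synthesis, was at 80.9 in sham (41.7 to 120), 122 in WI (60.2 to 184) and 113 in IR (56.2 to 170). Its change from sham to WI was 0.59, just past 1.5-fold, and 0.55 on a common sum, just under it. The change from sham to IR was 0.48, which changes sign on a common sum. Slc25a10, the dicarboxylate carrier that exchanges malate or succinate for phosphate, was at 35.5 in sham (18.0 to 52.9), 47.6 in WI (23.4 to 71.8) and 50.9 in IR (24.8 to 76.9). Slc25a11, the oxoglutarate carrier of the malate-aspartate shuttle, was at 43.9 in sham (23.3 to 64.5), 46.6 in WI (24.6 to 68.5) and 36.6 in IR (19.6 to 53.7), so the ratio of Slc25a10 to Slc25a11 was 0.808, 1.02 and 1.39. Slc25a21, which carries longer oxodicarboxylates, ranged from 4.01 to 5.74. The 4 members had a median change of 0.35 from sham to WI.

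Of the amino acid carriers, 7 of 9 passed the limit and 6 of these 7 stayed under 1.5-fold throughout as deposited. The exception was Slc25a22, which brings glutamate into the matrix together with a proton and lies on chromosome 7 from 141429748 to 141437874. Its FPKM was 63.2 in sham (31.3 to 95.1), 49.7 in WI (24.4 to 74.9) and 106 in IR (47.7 to 165). IR was highest, with bounds that overlapped those of both other libraries. The change was 1.08 from WI to IR and 0.74 from sham to IR, and no other member was at least 1.5-fold above sham in IR. On a common sum these changes were 0.54 and 0.17, both under 1.5-fold. RefSeq gives this gene 3 start windows, and none of them held any of the 4 motifs searched. Its relative Slc25a18 was at 0.0377 or less.

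Slc25a15, the ornithine/citrulline carrier that links the mitochondrial and cytosolic steps of the urea cycle, was at 88.8 in sham (41.2 to 136), 82.0 in WI (38.6 to 125) and 89.9 in IR (41.7 to 138), almost level. Slc25a13, or citrin, the aspartate/glutamate carrier of liver, was at 74.9 (34.5 to 115), 72.7 (33.1 to 112) and 49.8 (24.4 to 75.3), a change of -0.58 from sham to IR. On a common sum that change was -1.15, past 2-fold. Slc25a12, or aralar, the isoform typical of brain and muscle, was at 6.10 in sham (3.14 to 9.07), 6.10 in WI (3.14 to 9.06) and 6.45 in IR (3.34 to 9.56). The FPKM of Slc25a13 was 12.3, 11.9 and 7.73 times that of Slc25a12 in sham, WI and IR. Slc25a44, which carries branched-chain amino acids, was at 14.2, 19.4 and 12.9. Slc25a38, the glycine carrier needed for heme synthesis, ranged from 6.68 to 8.17, and Slc25a29, a carrier of basic amino acids, from 0.776 to 1.09.

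Slc25a20, the single acylcarnitine carrier, exchanges acylcarnitine for carnitine in the oxidation of fatty acids. It was at 60.8 in sham (31.6 to 89.96), 36.4 in WI (19.4 to 53.4) and 52.5 in IR (27.6 to 77.4). The change was -0.72 from sham to WI and 0.52 from WI to IR, the latter under 1.5-fold and of opposite sign on a common sum.

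All 7 carriers of cofactors and of the methyl donor passed the limit. Slc25a32, which carries folate or FAD, was at 13.9 in sham (7.48 to 20.4), 7.99 in WI (4.18 to 11.8) and 8.60 in IR (4.54 to 12.7). Unlike Slc25a51 it stayed low in IR, and its change from sham was -0.73 in WI and -0.64 in IR. On a common sum the latter was -1.16, past 2-fold. Slc25a42 and Slc25a16, both linked to coenzyme A, ranged from 18.7 to 24.8 and from 18.3 to 24.9. Slc25a17, which sits in the peroxisome and not in the mitochondrion, was at 28.6 in sham (15.4 to 41.8), 33.7 in WI (18.1 to 49.4) and 30.1 in IR (16.2 to 44.1). Slc25a26, the S-adenosylmethionine carrier, was at 2.55 to 3.01 with a lower bound of 0 in each library. Its annotated span overlaps that of Lrig1 by 95617 bases, and Lrig1 was at 4.28, 6.00 and 12.3. The counting is not stated to use strand, so the level of Slc25a26 is uncertain.

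For iron, Slc25a37 (mitoferrin 1, abundant in erythroid cells) was at 7.21 in sham (3.84 to 10.6), 9.70 in WI (5.21 to 14.2) and 5.25 in IR (2.75 to 7.75), a change of -0.78 from WI to IR. On a common sum that change was -1.24, past 2-fold. The 8 erythroid markers summed to 751, 518 and 1976 in the same libraries, and the 9 neutrophil markers to 25.9, 19.6 and 462. The part of these cells in the level of Slc25a37 was not tested. Slc25a28 (mitoferrin 2, present in most tissues) was at 10.9 in sham (5.54 to 16.3), 9.37 in WI (4.71 to 14.0) and 12.3 in IR (6.34 to 18.2), so its ratio to Slc25a37 was 1.51 in sham, 0.967 in WI and 2.33 in IR. For glutathione, Slc25a39 was at 172 in sham (81.2 to 263), 192 in WI (88.6 to 295) and 240 in IR (107 to 373), under 1.5-fold and of opposite sign for IR on a common sum. Its relative Slc25a40 was at 0.756 to 1.18, lower by 161 times in sham and 317 times in IR.

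Among the 9 members with no settled substrate, 5 passed the limit. Slc25a47, whose expression is typical of liver, was the highest member in each library. Its FPKM was 585 in sham (209 to 962), 422 in WI (166 to 678) and 708 in IR (233 to 1183), which placed it at rank 113, 181 and 133 among all genes. It held 27.1%, 21.0% and 28.5% of the family's summed FPKM. WI was lowest, with changes of -0.47 and then 0.75, and the bounds overlapped widely. On a common sum the latter was 0.20, under 1.5-fold. Its relative Slc25a45 ranged from 6.46 to 9.44 and was highest in WI.

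Slc25a46, an outer membrane protein of mitochondrial shape and dynamics, was at 13.1 in sham (7.03 to 19.1), 11.1 in WI (5.98 to 16.3) and 8.38 in IR (4.49 to 12.3), a change of -0.59 from sham to IR. Slc25a34 was at 2.48 (1.12 to 3.84), 1.43 (0.571 to 2.30) and 0.943 (0.335 to 1.55), a change of -0.84. Without a pseudocount the latter was -1.39, past 2-fold. On a common sum the changes were -1.11 for Slc25a46 and -1.17 for Slc25a34, both past 2-fold. With Slc25a4 and Slc25a32 these were the 4 members at least 1.5-fold lower in IR than in sham as deposited. Slc25a35, a relative of Slc25a34, did not reach the limit, at 0.421, 0.372 and 0.240. Slc25a48 ranged from 1.96 to 3.41.

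Some members are neighbours in the genome and differ widely in level. Slc25a29 and Slc25a47 lie 15.3 kb apart on chromosome 12, and per length Slc25a47 was at 585 and Slc25a29 at 1.05 in the sham library. On the X chromosome 18.3 kb separate Slc25a43, at 0.263 in sham and 0 in WI, from Slc25a5. On chromosome 17 only 2.06 kb separate Slc25a41, listed at 0 in all libraries, from Slc25a23. Slc25a54, also listed at 0, lies 6.57 kb from Slc25a24 on chromosome 3. These 4 were all the pairs of members within 100 kb of each other. The X-linked members were 4 in all, and only Slc25a5 and Slc25a14 passed the limit.

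**Figure D4:**
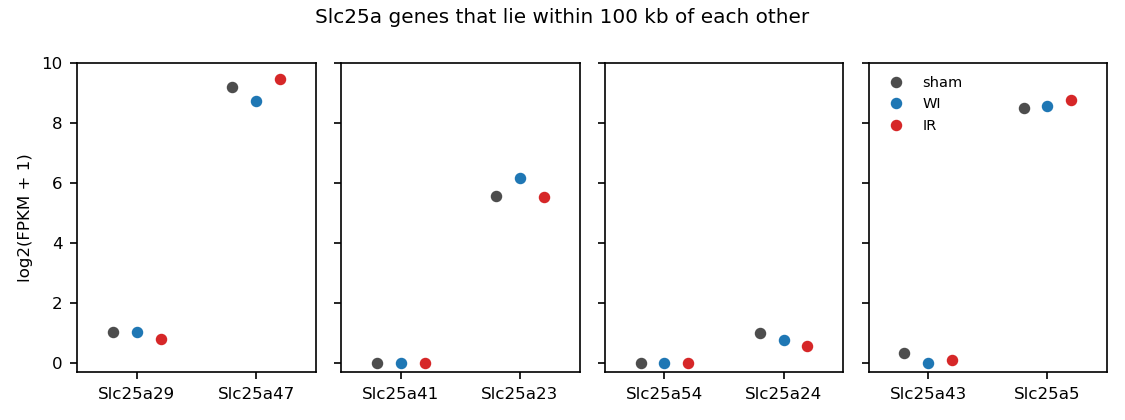
Level of the 4 pairs of Slc25a genes that lie within 100 kb of each other, as log2(FPKM + 1), with 1 point per library (sham grey, WI blue, IR red). In each pair the gene on the right is higher in all 3 libraries, and Slc25a41 and Slc25a54 are at 0.

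Carriers of the family that bear other symbols were followed as well. Ucp2, an uncoupling protein known from macrophages and many tissues, was at 17.8 in sham (9.43 to 26.2), 10.2 in WI (5.49 to 14.9) and 12.7 in IR (6.78 to 18.5), a change of -0.75 into WI. The 7 Kupffer cell and macrophage markers summed to 484, 246 and 161. From WI to IR, 5 of the 7 were at least 1.5-fold lower, beside 7.40% of all genes, and 1 was higher, beside 12.4%. Cd68 was at 18.5, 12.3 and 18.5 and Marco at 20.9, 12.6 and 25.3, while Clec4f was at 115, 65.3 and 32.7. The part of these cells in the level of Ucp2 was not tested. Ucp1 and Ucp3 were at 0.0219 or less, and the outer membrane relatives Mtch1 and Mtch2 stayed within 1.5-fold.

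Of 54 partner genes that passed the limit, 2 were at least 1.5-fold higher in WI than in sham (3.70%, beside 3.14% of all genes) and 4 lower (7.41%, beside 4.27%). From WI to IR, 7 were higher (13.0%, beside 12.4%) and 3 lower (5.56%, beside 7.40%). Between IR and sham 7 were higher (13.0%, beside 14.3%) and 3 lower (5.56%, beside 9.49%). These counts are as deposited, since the partner genes were not put on a common sum. That scale lowers the median of all genes by 0.44 for IR against WI and by 0.47 for IR against sham. Got1, the cytosolic transaminase of the malate-aspartate shuttle, was at 339.6 in sham (133 to 546), 143 in WI (66.5 to 219) and 300.1 in IR (121 to 480). Slc22a5, the carnitine importer of the plasma membrane, was at 27.0 (14.3 to 39.6), 11.3 (6.04 to 16.5) and 34.8 (18.2 to 51.4). Both were at least 1.5-fold lower in WI than in both other libraries, as 2 of the 54 (3.70%, beside 1.70% of all genes). Acly, which splits the exported citrate in the cytosol, was at 38.6 (19.4 to 57.8), 98.2 (38.5 to 158) and 53.5 (22.7 to 84.2), with WI highest, as for the citrate carrier Slc25a1.

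Of the 5 carnitine shuttle genes that passed, Crat was lower in both clamped livers than in sham, with an FPKM of 13.6, 5.99 and 6.70, and Crot, the peroxisomal octanoyl transferase, was at 97.9, 91.5 and 194. The 6 urea cycle enzymes had a median change of 0.15 from sham to WI and 0.27 from WI to IR, with Cps1 at 790, 811 and 677. Of the 11 genes of the machinery that imports carriers into the inner membrane, 4 were at least 1.5-fold higher in IR than in sham, beside 14.3% of all genes. The changes as deposited were 0.71 for Timm10, 0.66 for Timm10b, 0.61 for Timm8b and 0.75 for Timm13. They were not recomputed on a common sum. That scale multiplies the ratio of IR to sham by 0.668, which brings all 4 under 1.5-fold. Timm10, one of the small chaperones of the intermembrane space, was at 23.4, 19.8 and 38.9. Of the 11 other membrane transport genes, 1 differed 1.5-fold in any comparison (Sfxn5, at 4.54, 6.18 and 3.27), and Mpc1 and Mpc2, the pyruvate carrier, stayed under 1.5-fold. The share of all genes that differed in any comparison was not counted. Of 13 heme and iron-sulfur genes, 1 was at least 1.5-fold higher in WI than in sham (Alad, at 14.4, 23.1 and 21.0), beside 3.14% of all genes. Another was lower (Alas1, at 271, 180 and 238), beside 4.27%. In IR against sham, Iscu was higher, at 69.4, 74.3 and 106, beside 14.3% of all genes. Cpox was lower, at 49.1, 39.2 and 26.9, beside 9.49%. Abcb10 was lower in IR than in WI, at 5.14, 7.62 and 4.48, beside 7.40% of all genes.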

How the data were processed

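Liver RNA of 1 library per group was sequenced as read pairs. Per the study's methods and the submitters' processing notes, the authors mapped reads to mm10 with TopHat2 2.0.9 and used Cuffdiff of Cufflinks 2.0.2, both at default parameters. The deposited tables give 1 FPKM per gene, normalized by the authors for transcript length and mapped fragments. The deposited lower and upper 95% bounds are on the same scale and were treated as a signal with no counts behind it, so depth per gene is unknown.

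Genes entered when any library reached an FPKM of 1, and log2(FPKM + 1) was compared in 3 pairs of libraries. No test was made, since there is 1 library per group. Folds were counted at 2 and 1.5, over the whole table and over the members. Values in all libraries were printed for members past 1.5-fold in any comparison, for the 10 highest by median, for the highest of each substrate group and for related carriers. Substrate groups, partner genes and marker lists were written from general knowledge. The members and lists were chosen with earlier results of these data known, and the motifs and the pattern around WI after the values were seen. Start windows and gene spans came from RefSeq on GRCm38.p6. Alternatives were a pseudocount of 0.1 or none, other filters, other scalings, autosomal members only and status OK only. The counting functions were tested on simulated data. Python 3.11.15, numpy 2.4.6, pandas 2.3.3 and matplotlib 3.10.9 were used. The values of 1 member that passed the limit are not reported here, though it is in the counts and medians.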

Additional observations from a re-analysis of the deposited data

How the results depend on the processing

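No paired analysis was possible because each group has 1 library, and for the same reason no replicate could be left out. Members on autosomes only, members with status OK only, other filters on low values and scaling by the median ratio left every count within 1.5 times its value. The medians moved little, but some changed sign with the filter. That of IR against sham, -0.07, was 0.04 with an FPKM of at least 1 in all libraries. It was 0.02 with at least 5 in at least 1 library. That of WI against sham, 0.04, was -0.002 without a filter. With a pseudocount of 0.1, 2 members differed 2-fold between WI and sham and 1 between IR and sham, and 11 differed 1.5-fold between IR and WI. Without a pseudocount these counts were 2, 1 and 12, and 8 members differed 1.5-fold between IR and sham.

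On a common sum, which lowers all IR values, 2 members differed 2-fold from sham in WI and 5 in IR, and 5 differed 2-fold from WI in IR. Those 5 of IR against sham were all lower, namely Slc25a4, Slc25a13, Slc25a32, Slc25a34 and Slc25a46. In IR against WI, Slc25a30 was higher, at 1.33. Lower there were Slc25a37 at -1.24, Slc25a23 at -1.15, Slc25a13 at -1.07 and Slc25a44 at -1.06. At 1.5-fold, 17 members of IR differed from WI and 17 from sham, with median changes of -0.45 and -0.53. The medians of all genes on that scale were -0.41 and -0.42. The shares of all genes past these limits were not counted on a common sum, so these member counts have nothing to be set against. Bounds then did not overlap for 0 members between IR and WI and for 1 between IR and sham, 0 members had WI at least 1.5-fold above both, and 2 in place of 3 had it below both. With these values taken relative to the median of all genes, a choice made after seeing the data, 2 members differed 2-fold between WI and sham and 0 had WI at least 1.5-fold above both, and the other counts, summed over both directions, stayed within 1.5 times. By direction, the members at least 1.5-fold higher numbered 0 in WI against sham and 0 in IR against sham, and those lower numbered 4 in IR against WI. For these counts, too, the shares of all genes were not counted. No change past 1.5-fold turned its direction under any of these settings. Low carriers such as Slc25a34 and Slc25a14 depend most on the pseudocount.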
